A study of Lytechinus variegatus with 18 samples.

Results

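The change from 18 to 21 hours post fertilization (hpf) was followed in embryos of Lytechinus variegatus, a sea urchin, that had received ethanol (EtOH) at fertilization. The comparison took the 3 ethanol libraries at 21 hpf against the 3 ethanol libraries at 18 hpf, as the deposited sample sheet assigns them, and paired them by replicate letter A, B or C. These are 6 of 18 libraries in all. All embryos were whole and of WT genotype, and about 150 embryos went into each sample. The remaining libraries were ethanol embryos at 15 hpf and control embryos at 15, 18 and 21 hpf, again 3 of each. The labels give neither the ethanol concentration nor what the control embryos received in its place, and they do not say whether the letters mark separate parents. The p-values therefore measure the spread between these samples, which may be technical.

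In a sea urchin embryo the hours around gastrulation turn a ciliated ball of cells into an embryo with a gut, a skeleton, pigment cells and the first neurons. Transcription factors such as the homeodomain protein Lox (the Pdx1 homologue, also called Xlox) act in the gut, primary mesenchyme cells secrete the calcite skeleton, and tubulins build the microtubules of cilia and spindles. Ethanol is known as a teratogen in many animals, and embryos of this kind are used to follow its effects while the developmental programme runs.

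The 6 ethanol libraries had total counts of 7429390 to 7977631. Of 27230 gene models, 18674 passed the expression filter in the fit to all libraries, and 15062 of those had a name. Names beginning with Sp- are those of the closest gene of the purple sea urchin, Strongylocentrotus purpuratus, in the deposited annotation, and roles given below are those known for the named gene. Levels are CPM values, which are counts relative to library size, after scaling by the trimmed mean of M values, and log2 changes are from edgeR with the replicate letter as a block. Markers of skeletogenic, pigment, gut and ectoderm cells were present in all 6 libraries, as in a whole embryo. Sm50 was at 131 to 345 CPM, Pks1 at 4445 to 9693, Endo16 at 1060 to 2924 and FoxG at 121 to 235. In RNA of whole embryos, fewer cells of a type and less RNA per cell cannot be told apart.

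The C pair at 21 hpf went against its labels. A score over the 500 genes that best separated ethanol from control in A and B at 15 and 18 hpf gave ethanol minus control differences of 0.893 for A and 0.829 for B at 21 hpf, and of 0.909 and 1.01 for C at 15 and 18 hpf. For the library labelled ethanol C at 21 hpf the difference from its control was -0.947. The labels were kept as deposited, and each result is given for all 3 letters and for A and B alone. Where "ethanol C at 21 hpf" is named below, it is the library labelled so.

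From 18 to 21 hpf the change in ethanol embryos gave more rises than falls among the genes that passed. With all letters, 217 genes rose and 19 fell at an adjusted p under 0.05 (edgeR's quasi-likelihood test, Benjamini-Hochberg adjustment over all 18674 genes), which is 1.26% of those tested, 1.16% higher and 0.102% lower. In A and B alone, 58 rose and 2 fell, 0.323% of 18592 tested, with 0.312% higher and 0.0108% lower. Of the 58, 54 were also among the 217, that is 93.1% of the shorter list and 24.9% of the longer. Without A no gene passed in edgeR (1993 at an unadjusted p under 0.05) and without B 79 did. Without the replicate block 2 passed.

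The 217 genes rose by a median of 2.04 on the log2 scale, with quartiles of 1.56 and 2.68 and a range of 0.77 to 6.79. The median over all genes was -0.02. By letter, the median of the 217 was 1.83 in A, 1.26 in B and 2.58 in C, and C had the largest of the 3 changes for 165 genes. The 3 libraries at 21 hpf all lay above the 3 at 18 hpf for 194 of them. Over all genes the share was 6.22%, but the risers were called on these same libraries, so nothing is read from the count. The 58 genes called from A and B alone were all higher at 21 hpf in C as well, by a median of 3.78, where 46.8% of all genes were higher. Since ethanol C at 21 hpf scored on the control side, time and treatment cannot be told apart in that pair.

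**Figure D1:**
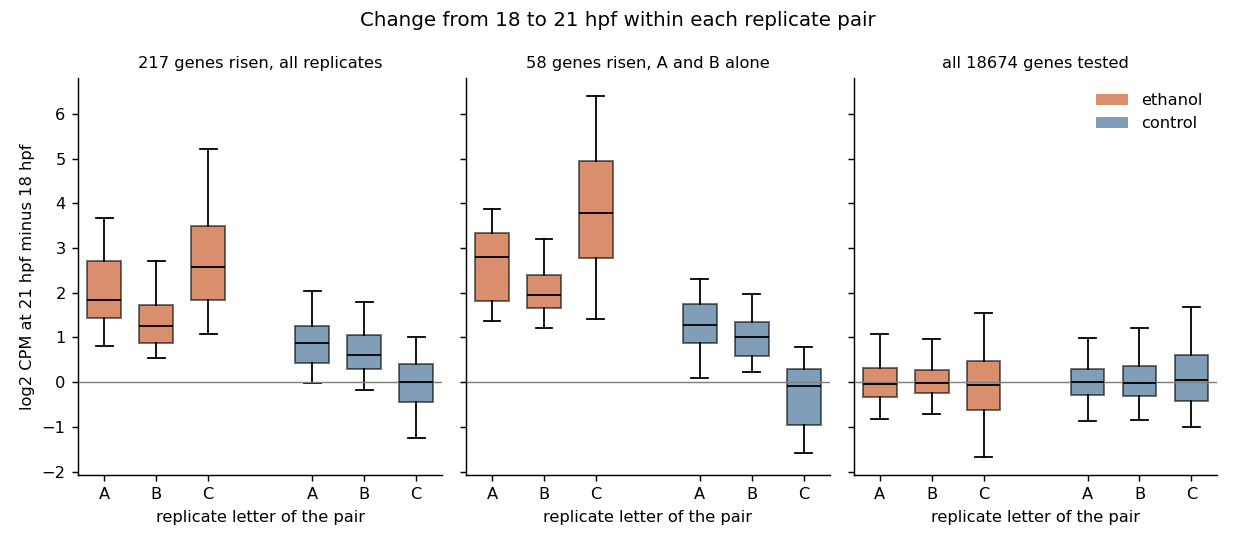
Box plots of the log2 CPM change from 18 to 21 hpf in each replicate pair, for ethanol and control embryos, over the 217 genes that rose with all letters, the 58 that rose with A and B alone, and all 18674 genes tested. Boxes span the quartiles with the median as a line, whiskers run from the 5th to the 95th percentile, and the ethanol boxes of the risers lie above 0 in each pair while those of all genes centre near 0.

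The largest rises included gut and neural regulators. Sp-Lox (L_var_00399, chromosome 1, 15507568 to 15529787), the homeobox gene of the posterior gut in S. purpuratus, was at 0.114, 1.21 and 0.529 CPM in A, B and C at 18 hpf and at 5.0, 7.55 and 34.3 CPM at 21 hpf. Every 21 hpf library was above every 18 hpf library, and C at 21 hpf was the highest. The rise was 4.58 ± 0.80 on the log2 scale (SE; edgeR, Benjamini-Hochberg, adjusted p = 0.0144) and 3.35 for A and B alone (adjusted p = 0.0422). A second gene model of the same name (L_var_00424, chromosome 1, 16384261 to 16405931) went from 0.686, 3.22 and 0.211 CPM to 6.45, 15.9 and 12.1 CPM, again without overlap. It rose by 3.46 ± 0.73 (edgeR, adjusted p = 0.0304) and by 2.58 for A and B alone (adjusted p = 0.025). Reads may be divided between these 2 models, so the level of each is uncertain.

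Sp-Brn3 (L_var_00516, chromosome 1), a POU-domain factor of sensory neurons in other animals, was at 0.571, 0.671 and 0.529 CPM at 18 hpf and at 2.24, 7.81 and 25.7 CPM at 21 hpf. The 18 hpf libraries were close to each other, and the 21 hpf libraries were all higher but spread widely. It rose by 4.31 ± 0.96 (edgeR, Benjamini-Hochberg, adjusted p = 0.0384) and by 2.90 for A and B alone (adjusted p = 0.0461). Sp-Pitx1_1 (L_var_25830, chromosome 18), a homeobox factor that acts downstream of Nodal in left-right asymmetry, was at 0.686, 0.268 and 1.16 CPM and then at 4.08, 6.67 and 32.8 CPM. Its groups did not overlap. A and B alone gave a rise of 3.38 (edgeR, adjusted p = 0.0144), while with all letters the change of 4.2 ± 1.03 missed the threshold (adjusted p = 0.0565).

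Sp-FoxI (L_var_19606, chromosome 12), a forkhead transcription factor, went from 0.686, 2.01 and 1.27 CPM to 7.90, 18.1 and 16.7 CPM. Here C at 21 hpf lay between A and B. The rise was 3.47 ± 0.64 with all letters (edgeR, Benjamini-Hochberg, adjusted p = 0.0183) and 3.27 with A and B alone (adjusted p = 0.0104). In control embryos of A and B, FoxI was at 4.13 and 4.07 CPM at 18 hpf and at 30.4 and 28.4 CPM at 21 hpf, so that ethanol A and B at 21 hpf were above the 18 hpf controls of their letters and below their 21 hpf controls.

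**Figure D2:**
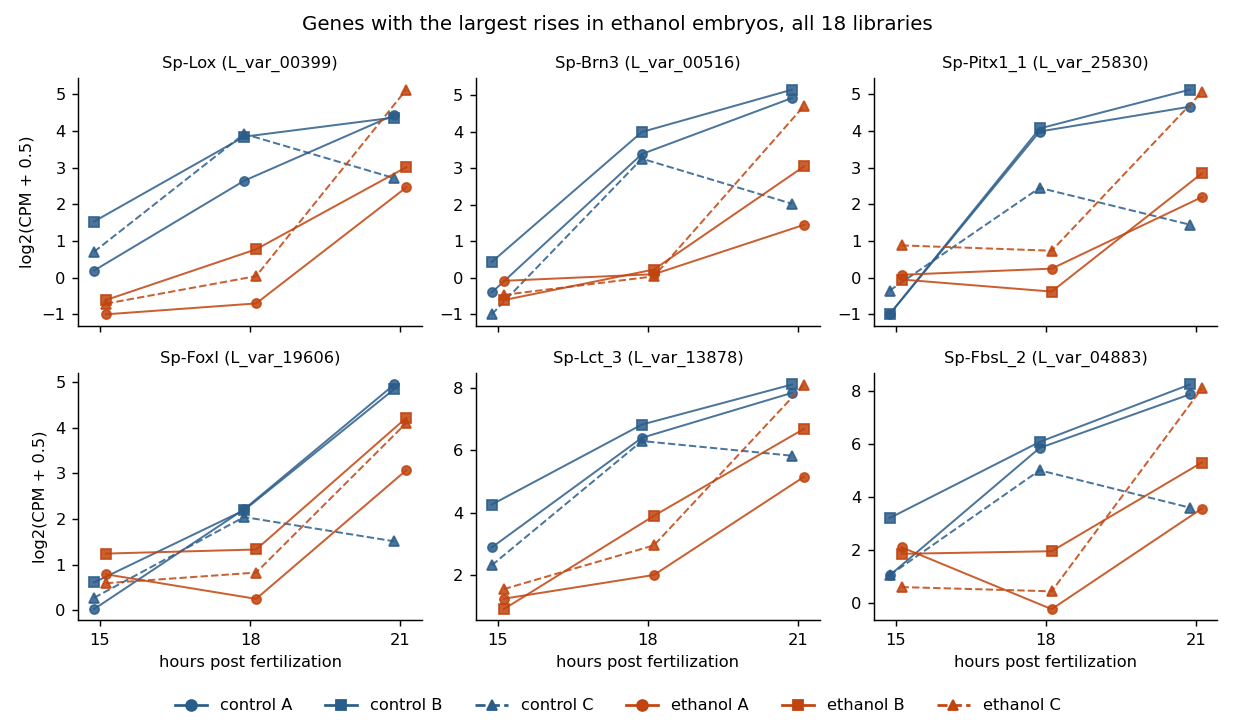
Level as log2(CPM + 0.5) against time in hpf for Sp-Lox (L_var_00399), Sp-Brn3, Sp-Pitx1_1, Sp-FoxI, Sp-Lct_3 and Sp-FbsL_2, in each of the 18 libraries, with lines joining libraries of the same letter and treatment and C drawn dashed. Ethanol A and B climb from 18 to 21 hpf but end below the controls of their letters, while ethanol C at 21 hpf lies above its control.

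Several models named for lactase were among the genes that rose. Sp-Lct_3 (L_var_13878, chromosome 7, 30214585 to 30230043), named for lactase-phlorizin hydrolase, a brush-border enzyme that splits sugars, went from 3.54, 14.5 and 7.29 CPM to 35.1, 103 and 274 CPM. The groups did not overlap. It rose by 4.12 ± 0.71 (edgeR, Benjamini-Hochberg, adjusted p = 0.0133) and by 2.97 for A and B alone (adjusted p = 0.0108). Its neighbours on the same strand moved with it. Sp-Lct_11 (L_var_13879, 30235030 to 30239431) went from 0.686, 3.36 and 0.952 CPM to 13.6, 18.8 and 48.4 CPM, a rise of 4.21 (adjusted p = 0.00979) and of 3.13 with A and B alone (adjusted p = 0.00953). Sp-Lct_2 (L_var_13877) rose by 3.19 with all letters (edgeR, adjusted p = 0.0447) and stood at 2.18 with A and B alone (adjusted p = 0.0967). The 3 models lie side by side and are alike by name, so reads may be shared among them. Elsewhere, on chromosome 9, Sp-Lph (L_var_16481) rose by 4.17 (edgeR, adjusted p = 0.0499), from at most 0.571 CPM at 18 hpf to 2.24, 7.05 and 19.6 CPM at 21 hpf.

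Sp-Fabp2L2 (L_var_13541, chromosome 7), named for the fatty acid binding proteins that carry lipids inside cells, was at 4.23, 50.2 and 3.17 CPM at 18 hpf and at 88.3, 232 and 568 CPM at 21 hpf. B was the high library at 18 hpf and C at 21 hpf, and the groups did not overlap. It rose by 5.34 ± 1.03 (edgeR, Benjamini-Hochberg, adjusted p = 0.0241) and by 2.97 with A and B alone (adjusted p = 0.0452). Both models named Sp-Mgam_3, after the starch-digesting maltase-glucoamylase, rose with all letters, by 2.93 (L_var_24549; adjusted p = 0.0243) and 2.55 (L_var_24669; adjusted p = 0.0133). They were at 2.60 and 2.16 in A and B alone and did not pass (edgeR, adjusted p = 0.13 and 0.099). The list of digestive enzymes holds these 2 models but no gene named for lactase. No other of its 50 tested genes passed, its median was 0.11, and with A and B alone none of 53 passed (5 at an unadjusted p under 0.05).

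Among metabolic enzymes, Sp-Ldha (L_var_27187, chromosome 19), for lactate dehydrogenase, which interconverts pyruvate and lactate, went from 1.26, 6.04 and 0.740 CPM to 4.34, 38.3 and 83.7 CPM. The groups overlapped, since B at 18 hpf was above A at 21 hpf, but each letter was higher at 21 hpf. It rose by 4.29 ± 0.93 (edgeR, Benjamini-Hochberg, adjusted p = 0.0349) and by 2.37 with A and B alone (adjusted p = 0.0338). Sp-Dhrs (L_var_05139, chromosome 2), of the short-chain dehydrogenases, rose by 4.69 ± 1.1 (adjusted p = 0.0489) and by 3.62 with A and B alone (adjusted p = 0.0338). Sp-B4galt5_1 (L_var_19849, chromosome 12), of the Golgi enzymes that add galactose to glycans, rose by 4.63 ± 0.96 (edgeR, adjusted p = 0.0293), from 0.80, 10.6 and 2.43 CPM to 18.3, 62.7 and 192 CPM. Its rise was 2.98 in A and B alone (adjusted p = 0.0418). Of 24 tested genes of ethanol oxidation, which include alcohol and aldehyde dehydrogenases and catalase, none passed in edgeR with either set of letters, and DESeq2 and limma-voom called 0. In edgeR 6 had an unadjusted p under 0.05 with all letters and 1 with A and B alone. The nearest, Sp-Cat for catalase, was at 191, 287 and 150 CPM and then at 347, 312 and 285 CPM (adjusted p = 0.204), with overlapping groups. Its change was 0.53 with A and B alone (edgeR, adjusted p = 0.768).

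Extracellular matrix genes rose in 6 of 41 tested and fell in none, and 3 rose with A and B alone, against 1.16% and 0.312% of all genes. Sp-FbsL_2 (L_var_04883, chromosome 2, 65188547 to 65192060), named for the echinoderm matrix protein fibrosurfin, had the largest rise of the genes chosen by the naming rule. It was at 0.343, 3.36 and 0.846 CPM at 18 hpf and at 11.3, 39.0 and 275 CPM at 21 hpf. The groups did not overlap, and C at 21 hpf was far above A and B. The rise was 6.54 ± 1.38 with all letters (edgeR, Benjamini-Hochberg, adjusted p = 0.0313) and 3.78 ± 0.62 with A and B alone (adjusted p = 0.0306). Controls of A and B at 21 hpf were at 236 and 306 CPM, so ethanol A and B remained well below them.

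A further 4 matrix genes lie in a run on chromosome 3, from 27802009 to 27990425. Sp-Co5a1 (L_var_06445), whose closest UniProt entry is a peroxidasin, had the smallest p of all genes. It was at 0.229, 0.403 and 0.317 CPM at 18 hpf and at 4.74, 5.54 and 8.49 CPM at 21 hpf. Replicates of both times were close together and the groups stood far apart, with a rise of 4.25 ± 0.47 (edgeR, Benjamini-Hochberg, adjusted p = 0.00187) and of 3.99 with A and B alone (adjusted p = 0.0104). Sp-A2col (L_var_06446), a collagen by its closest UniProt entry, went from 2.86, 5.37 and 4.97 CPM to 22.2, 21.9 and 42.3 CPM. It rose by 2.74 (adjusted p = 0.011) and by 2.50 with A and B alone (adjusted p = 0.0302). In the same run Sp-FcolI/II/IIIf (L_var_06444) rose by 1.88 and a further Sp-Co5a1 model (L_var_06443) by 2.48 with all letters, while with A and B alone they were at 1.88 and 2.21 and missed the threshold (edgeR, adjusted p = 0.144 and 0.0722). The laminin gene Sp-Lama2f_1 (L_var_25385), for a basement membrane protein, rose by 2.00 with all letters (edgeR, adjusted p = 0.0341) and was at 2.14 with A and B alone (adjusted p = 0.151). Over the whole list the median was 0.33 with all letters and 0.31 with A and B alone.

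Of the 236 genes that passed, 48 (20.3%) had a neighbouring gene that also passed, in 19 runs, where 1.26% of all tested genes passed. Each gene in these runs had risen, as had 217 of the 236. How often neighbours would pass together by position alone was not tested, so nothing is read from the count. The runs included the lactase run, a run of 3 beta-tubulins on chromosome 14 and 2 runs on chromosome 8 with models named Sp-Susd2. Tandem copies can share reads, so the members of a run are not independent observations.

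Cilium genes rose in 8 of 96 tested, and all 8 were tubulins. With A and B alone 4 of 97 rose, against 1.16% and 0.312% of all genes. Of 40 tubulin gene models, 26 alpha and 14 beta, 36 had a positive change, with a median of 1.29 with all letters and 0.76 with A and B alone. Of the 56 other cilium genes, none passed in edgeR with either set of letters (3 at an unadjusted p under 0.05 with all letters and 1 with A and B alone), limma-voom called 0 and DESeq2 called 1. Their changes ran from -0.67 to 0.61 with a median of 0.21. By letter the tubulin median was 0.88 in A, 0.46 in B and 2.18 in C.

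Sp-Btub5 (L_var_22568, chromosome 14, 28833010 to 28838245) was at 4.46, 13.7 and 3.17 CPM at 18 hpf and at 34.1, 54.3 and 142 CPM at 21 hpf. All 21 hpf libraries were higher than all 18 hpf libraries. It rose by 3.96 ± 0.74 (edgeR, Benjamini-Hochberg, adjusted p = 0.02) and by 2.45 with A and B alone (adjusted p = 0.0104). Next to it, the 2 models named Sp-Btub1 rose by 3.43 (L_var_22567) and 3.05 (L_var_22566) with all letters. They were at 2.23 and 2.21 in A and B alone, with an edgeR adjusted p of 0.151 for each. Sp-Btub3 (L_var_11264, chromosome 5) was at 24.2, 26.8 and 9.30 CPM and then at 88.8, 88.0 and 107 CPM. C was the low library at 18 hpf, the 21 hpf libraries were close to each other, and the groups did not overlap. It rose by 2.53 (edgeR, adjusted p = 0.0123) and by 1.81 with A and B alone (adjusted p = 0.0108). The alpha-tubulins that rose with both sets of letters were 2 models named Sp-Atub1. The first (L_var_09860) rose by 2.88 with all letters and 2.27 with A and B alone, and the other (L_var_09837) by 2.23 and 1.5. Several tubulin names are carried by 5 to 9 gene models, so their reads may be split among copies.

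**Figure D3:**
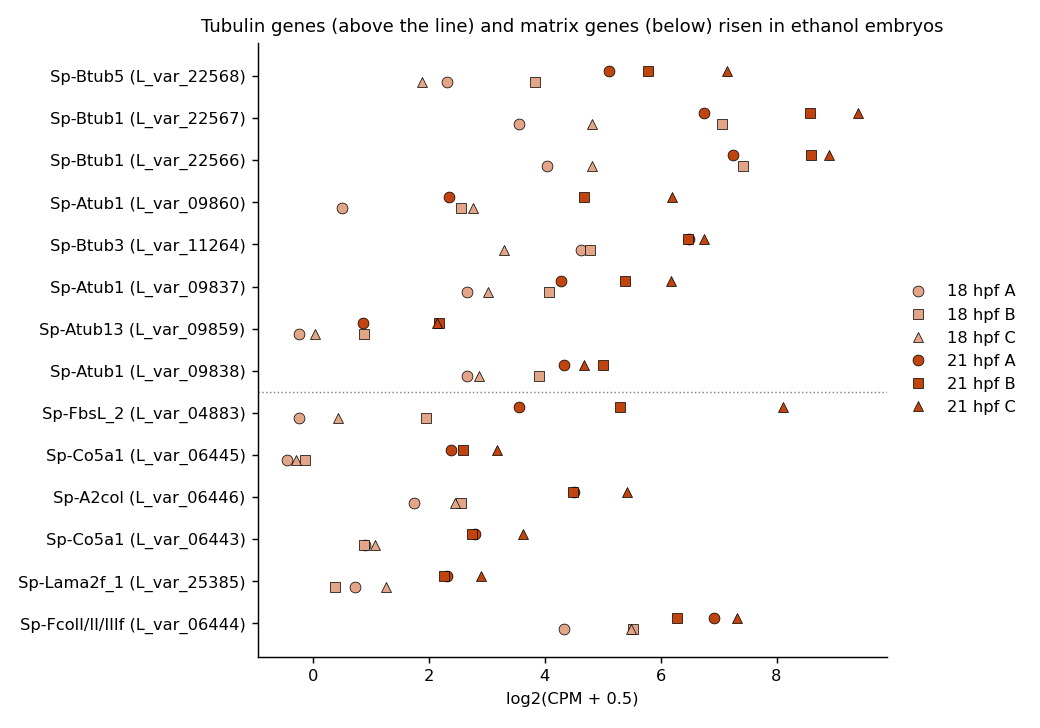
Level as log2(CPM + 0.5) at 18 and 21 hpf in ethanol libraries A, B and C for the 8 tubulin genes and the 6 extracellular matrix genes that rose with all letters. Each gene has its own row, with the level along the horizontal axis, the letter given by marker shape and the time by colour. In each row the 21 hpf marker of a letter lies to the right of its 18 hpf marker, for A and B as for C.

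Calls among skeletogenic genes were small in number. Of 34 biomineralization effectors 2 rose (5.88%) and none fell, where 1.16% of all genes rose. With A and B alone 1 of 33 rose (3.03%), where 0.312% of all genes rose. DESeq2 called 4 rises and no fall with all letters. Sp-Msp130r4 (L_var_22341, chromosome 14), related to the surface glycoprotein of primary mesenchyme cells, went from 0.343, 2.15 and 1.27 CPM to 5.66, 8.44 and 11.2 CPM, without overlap. It rose by 2.84 ± 0.49 (edgeR, Benjamini-Hochberg, adjusted p = 0.0133) and by 2.65 with A and B alone (adjusted p = 0.0383). Sp-Cara7LA (L_var_04705), a carbonic anhydrase, rose by 2.04 with all letters (adjusted p = 0.0209) and was at 1.64 with A and B alone (adjusted p = 0.0913). The median of the list was 0.30 with all letters and 0.28 with A and B alone, and the letters differed, at 0.54 in A, -0.11 in B and 0.26 in C.

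Among 21 skeletogenic regulators 1 rose (4.76%) and none fell in edgeR, where 1.16% of all genes rose. None passed with A and B alone. DESeq2 called 1 rise and 2 falls with all letters. A lower level at 21 hpf in each letter was found for 15 of the 21, and for 3760 of all 18674 genes. The median of the regulators was -0.71 with all letters and -0.28 with A and B alone, and by letter it was -0.25, -0.32 and -1.32. The gene that rose was Sp-Dr_1 (L_var_11305, chromosome 5, 43631572 to 43651157), the deadringer homologue, which in S. purpuratus acts in primary mesenchyme and then in oral ectoderm. It was at 83.0, 297 and 159 CPM at 18 hpf and at 368, 538 and 642 CPM at 21 hpf. The groups did not overlap, and B was the high library at 18 hpf. The rise was 1.66 ± 0.37 with all letters (edgeR, Benjamini-Hochberg, adjusted p = 0.0384), and with A and B alone the change of 1.46 did not pass (adjusted p = 0.22). In control embryos the same gene was at 530, 723 and 846 CPM at 18 hpf and at 528, 540 and 254 CPM at 21 hpf.

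For endoderm genes, the 2 Lox models were the only ones of 19 tested that passed, with all letters and with A and B alone. Over all genes 1.16% and 0.312% rose in these 2 fits. None of 17 dorsal-ventral, 26 neural and ciliary or 29 pigment, coelomic and muscle mesoderm genes passed in edgeR with either set of letters, although 5, 14 and 11 of them had an unadjusted p under 0.05 with all letters and 3, 6 and 5 with A and B alone. For all letters limma-voom called 0 of each and DESeq2 called 2, 3 and 3. The closest with all letters were Sp-FoxL1 at 3.75 (adjusted p = 0.0685), Sp-MyoD at 2.89 (adjusted p = 0.0565), Sp-Onecut at 1.12 (adjusted p = 0.0569) and Sp-ElavL at -1.0 (adjusted p = 0.0653). With A and B alone, FoxL1 and MyoD were at 1.95 and 2.5 (edgeR, adjusted p = 0.268 and 0.217). Onecut and ElavL were then at 1.07 and -0.73 (adjusted p = 0.14 and 0.362). The FoxL1 change was largest in C. Sp-Gsc and Sp-IrxA, regulators of the oral and aboral ectoderm, were at 0.93 and 0.70 with all letters (edgeR, adjusted p = 0.13 and 0.118). They were at 0.62 and 0.81 with A and B alone (adjusted p = 0.723 and 0.302). Of 46 signalling genes only the ligand Sp-Wnt3 (L_var_02525, chromosome 1) rose. It was at 16.1, 15.7 and 9.30 CPM and then at 44.1, 33.0 and 58.1 CPM, with no overlap, a rise of 1.81 ± 0.33 (edgeR, Benjamini-Hochberg, adjusted p = 0.0167). Its change of 1.28 in A and B alone did not pass (adjusted p = 0.0967).

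Cytoplasmic ribosomal protein genes had a positive change in common, of a size that differed by letter. All 81 tested were positive with all letters, against 47.4% of all genes, with a median of 1.06 and a range of 0.15 to 1.43. With A and B alone 80 were positive, with a median of 0.68. In the other fits to both treatments and under the other scalings, at least 79 of 81 were positive, or 83 of 84 under the looser filter. The fit to the 6 ethanol libraries alone was not summarised by list. By test, only Sp-Rps23 rose (L_var_07694; 1.29 ± 0.28; edgeR, Benjamini-Hochberg, adjusted p = 0.0354), and none with A and B alone, where 10 of 81 had an unadjusted p under 0.05. DESeq2 called 52 of them with all letters. Summed over the list, ethanol libraries were at 24530, 55616 and 20161 CPM at 18 hpf and at 52313, 60388 and 69073 CPM at 21 hpf. B was already near its later level at 18 hpf, and its median change was 0.13, against 1.02 in A and 1.75 in C. In B 71 of the 81 genes were higher at 21 hpf, in A 80 and in C 81. Control embryos were at 48189, 116840 and 61597 CPM at 18 hpf, and the median control change from 18 to 21 hpf was 0.09.

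Of 39 cell cycle genes Sp-Top2a_1, for the topoisomerase of dividing cells, rose by 1.07 with all letters (edgeR, Benjamini-Hochberg, adjusted p = 0.0255). It was at 0.89 with A and B alone (adjusted p = 0.0976), where no gene of the list passed (3 at an unadjusted p under 0.05), and the list median was -0.01 with all letters. Over all genes 1.16% rose with all letters and 0.312% with A and B alone. Solute carriers rose in 12 of 449 and fell in 1, with a median of -0.01, and none passed with A and B alone (58 at an unadjusted p under 0.05 in edgeR). Of 158 scavenger receptor and C-type lectin genes, families of innate immunity, 5 rose. In A and B alone 2 of 162 rose, Sp-Srcr212 (L_var_03944; 2.70; edgeR, adjusted p = 0.0344) and Sp-Srcr95 (L_var_04337; 1.23; adjusted p = 0.0452). Heat shock and DnaJ genes rose in 2 of 58, the heat shock cognate Sp-Hsp701A by 1.83 and Sp-Dnajhc5b by 1.30, and none passed with A and B alone (5 at an unadjusted p under 0.05).

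**Figure D4:**
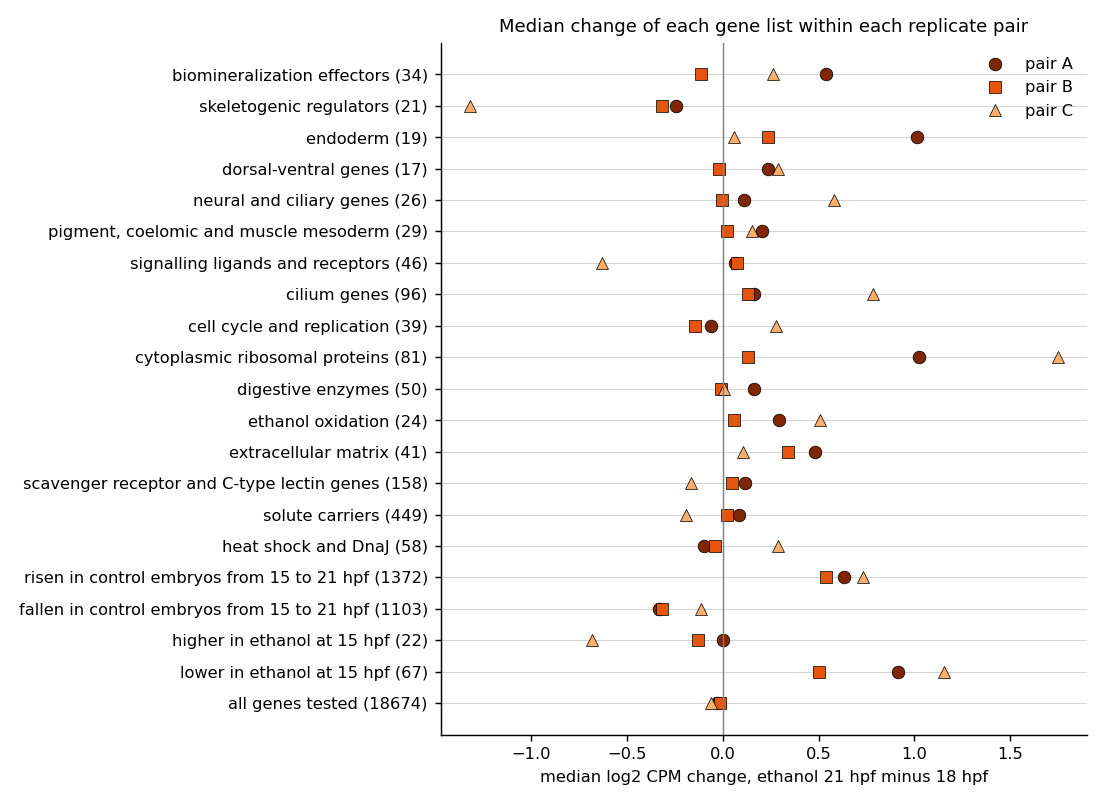
Median log2 change from 18 to 21 hpf in ethanol embryos of letters A, B and C, for each gene list, for genes that changed in control embryos from 15 to 21 hpf, for genes that differed between ethanol and control at 15 hpf, and for all genes tested. Letters stand close together for genes that fell in the control and far apart for ribosomal proteins and skeletogenic regulators, where C is at 1.75 and -1.32.

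Few genes fell. With all letters the 19 falls had a median of -1.1 and ran from -4.12 to -0.73, and the groups did not overlap for 13 of them. All genes lower in this way were 6.01%, and again the falls were called on these libraries. Sp-RasO (L_var_06394, chromosome 3, 26421352 to 26428276), a small GTPase of the Ras family, was the only gene that fell with both sets of letters. It was at 150, 91.8 and 99.4 CPM at 18 hpf and at 55.3, 50 and 43.7 CPM at 21 hpf. All 21 hpf libraries were lower, and they were close to each other. The change was -1.17 ± 0.22 with all letters (edgeR, Benjamini-Hochberg, adjusted p = 0.0202) and -1.16 with A and B alone (adjusted p = 0.0452).

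The other fall with A and B alone was Sp-Dach (L_var_00427, chromosome 1), the homologue of the nuclear factor dachshund, at 103, 83.9 and 99.7 CPM and then at 53.7, 40.0 and 18.3 CPM. It was lower in each letter, at -1.0 with A and B alone (edgeR, Benjamini-Hochberg, adjusted p = 0.0422) and -1.30 with all letters, which did not pass (adjusted p = 0.143). Controls of A and B were lower still, at 29.3 and 25.5 CPM at 18 hpf. The largest falls with all letters chosen by the naming rule were Sp-Hypp_2066 at -2.18, Sp-Unc44_293 at -1.87, the retrotransposon-like Sp-GagpolL_10 at -1.65, the Ras-like Sp-Rergl4 at -1.41, Sp-Abtb2 at -1.41 and Sp-Mekk4b at -1.36. In A and B alone these ranged from -1.98 to -1.1, and none passed (edgeR, adjusted p from 0.054 to 0.337). The solute carrier Sp-Slc16aL5 (L_var_14068) fell to no count in B and C at 21 hpf, from 1.26, 1.07 and 0.634 CPM, so its fitted change of -4.12 depends on the prior count.

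Most of the genes that rose in ethanol embryos were genes that rise in control embryos over a longer span. From 15 to 21 hpf 1372 genes (7.35%) rose and 1103 (5.91%) fell in control embryos. That contrast uses no library of the ethanol change. Both came from the same fit, however, with a shared filter and estimate of spread, so the calls are not fully independent. Of the 217 ethanol risers 193 were among the 1372, that is 88.9% of the risers and 14.1% of the control list, and 16 of the 19 falls were among the 1103, 84.2% and 1.45%. None of the 1103 rose and none of the 1372 fell. With A and B alone, where 1284 genes (6.91%) rose and 869 (4.67%) fell in the control, all 58 risers were among the 1284, which is 4.52% of that list. The 1372 genes had a median ethanol change of 0.73, and 90.3% were positive, against 47.4% of all genes.

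Levels set against the control of the same letter placed the 217 risers below control at 18 hpf, in 209 genes for A, 203 for B and 213 for C. Across all genes 9182, 9171 and 8728 of 18674 were below. The risers were called on these same 18 hpf libraries, so these counts are a description. At 21 hpf 172 genes in A and 179 in B were still below the control of the letter, and 12 in C. Across all genes 9141, 9225 and 9695 were below at 21 hpf. Ethanol A at 21 hpf was above control A at 18 hpf for 125 of the 217 genes, and ethanol B above control B for 104. Across all 18674 genes these counts were 9444 and 9418, so for this comparison the risers were near the share of all genes. Within control embryos the 217 genes had median changes from 18 to 21 hpf of 0.87 in A, 0.60 in B and 0.00 in C.

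Genes low in ethanol embryos at 15 hpf were also found among the risers. They are not a group apart from the control risers, since all 58 risers of A and B alone were in that control list. At 15 hpf 67 genes (0.359%) were lower and 22 (0.118%) higher in ethanol than in control embryos. These libraries are again outside the contrast from 18 to 21 hpf but inside the same fit. Of the 67, 17 rose (25.4% of the list and 7.83% of the risers), where 1.16% of all genes rose. A positive change was found for 61 of the 67, against 47.4% of all genes, with a list median of 0.92. By letter the median was 0.91 in A, 0.50 in B and 1.15 in C. With A and B alone 153 genes were lower at 15 hpf (0.823%), with a median ethanol change of 0.70. Of these 15 rose, 9.8% of that list and 25.9% of the 58 risers, where 0.312% of all genes rose. Of the 22 genes higher in ethanol at 15 hpf 1 rose, Sp-Clect_106, and their median was -0.36. With A and B alone none of 181 (0.974%) passed in edgeR, with 26 at an unadjusted p under 0.05. At 18 hpf the 67 genes were below the control of the letter in 67, 64 and 66 cases for A, B and C, and at 21 hpf in 53, 56 and 12. Across all 18674 genes 9182, 9171 and 8728 were below at 18 hpf, and 9141, 9225 and 9695 at 21 hpf.

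Sp-St8sia3_1 (L_var_00953), of the sialyltransferases that extend sialic acid chains on glycans, was chosen after its values were seen, as a gene whose ethanol level met that of the control. In ethanol libraries A, B and C it was at 0.334, 0.465 and 0.335 CPM at 15 hpf, at 2.74, 2.68 and 2.75 CPM at 18 hpf and at 11.6, 8.94 and 12.9 CPM at 21 hpf. Replicates were close at each time. Controls were at 9.60, 6.18 and 8.98 CPM at 18 hpf and at 9.72, 9.30 and 8.52 CPM at 21 hpf, so the groups were apart at 18 hpf and overlapped at 21 hpf. The ethanol rise was 2.02 ± 0.27 (edgeR, Benjamini-Hochberg, adjusted p = 0.00536) and 1.91 with A and B alone (adjusted p = 0.0406). The control change was 0.15 with all letters.

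Whether the ethanol change from 18 to 21 hpf differed from the control change was tested directly. With all letters no gene passed in edgeR (1812 at an unadjusted p under 0.05; smallest adjusted p 0.448), limma-voom called 0 and DESeq2 called 15. Within control embryos 1 gene (0.00536%) passed from 18 to 21 hpf with all letters and 50 (0.269%) with A and B alone, 43 of them higher (0.231%) and 7 lower (0.0377%). The larger count of calls in ethanol embryos with all letters is thus not shown to be a larger change. With A and B alone 1 gene (0.00538%) differed, with 466 at an unadjusted p under 0.05.

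That gene was Sp-Msclact (L_var_19627, chromosome 12, 10128683 to 10132826), for M actin, a muscle actin, whose name is carried by 4 gene models. Control A and B went from 14.9 and 17.9 CPM at 18 hpf to 240 and 294 CPM at 21 hpf, while ethanol A and B went from 4.80 and 8.99 CPM to 6.71 and 13.3 CPM. Controls of both letters rose far above their 18 hpf level, and the ethanol values of the 2 times overlapped. The control change was 4.03 (edgeR, Benjamini-Hochberg, adjusted p = 2.47e-05), the ethanol change was 0.54 (adjusted p = 0.713), and the difference was -3.49 (adjusted p = 0.00761). In C the library labelled ethanol was at 12.8 CPM at 18 hpf and at 136 CPM at 21 hpf, and the library labelled control was at 12.6 and 31.8 CPM. With all letters the ethanol change was 2.29 and did not pass (adjusted p = 0.222). The difference from control was then -1.51 ± 1.19 and did not pass either (edgeR, adjusted p = 0.598).

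The smallest unadjusted p-values for a difference with all letters were those of Sp-Hypp_2644 and Sp-FoxY. The adjusted p was 0.448 for each (edgeR, Benjamini-Hochberg), a value shared with Sp-St8sia3_1, Sp-Atub1 (L_var_09860) and models without a name. With A and B alone the difference was 1.45 for Sp-Hypp_2644 and 1.95 for Sp-FoxY, and neither passed. Sp-FoxY (L_var_09987, chromosome 5), a forkhead gene of the coelomic pouch precursors in S. purpuratus, was at 46.6, 121 and 52.8 CPM in ethanol embryos at 18 hpf and at 184, 182 and 178 CPM at 21 hpf. Control embryos went the other way, from 184, 219 and 214 CPM to 122, 127 and 146 CPM. With C as labelled, the ethanol and control ranges were apart at each time, with ethanol the lower at 18 hpf and the higher at 21 hpf. The same held in A and B alone. If the C labels at 21 hpf were exchanged, the ranges would overlap at that time. The ethanol rise was 1.43 ± 0.28 (edgeR, adjusted p = 0.0243), and with A and B alone the change of 1.28 did not pass (adjusted p = 0.209). Sp-Hypp_2644 (L_var_15144, chromosome 8), a gene of unnamed function, went from 10.4, 8.86 and 5.18 CPM to 30.5, 20 and 20 CPM in ethanol embryos, and was at 27.6, 23.6 and 11.9 CPM and then at 28.6, 20.4 and 11 CPM in control embryos. Its ethanol rise was 1.57 ± 0.21 (edgeR, adjusted p = 0.00536) and 1.38 with A and B alone (adjusted p = 0.025).

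**Figure D5:**
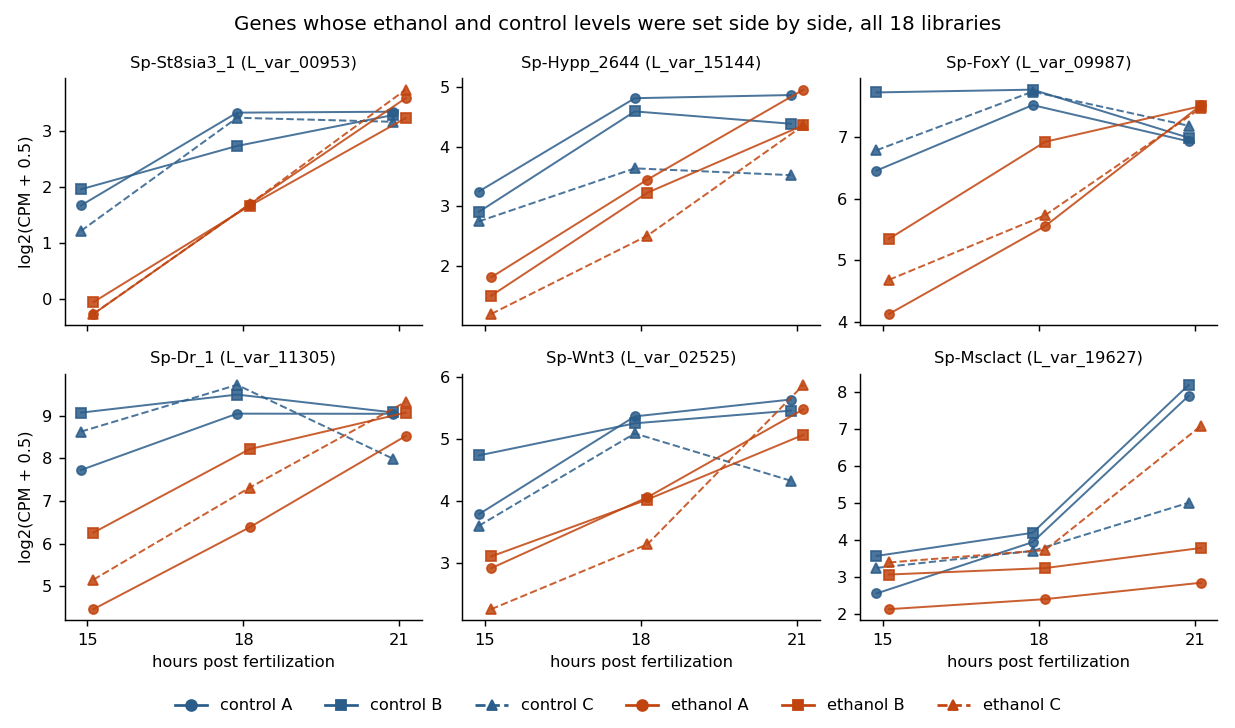
Level as log2(CPM + 0.5) against time in hpf in each of the 18 libraries for Sp-St8sia3_1, Sp-Hypp_2644, Sp-FoxY, Sp-Dr_1, Sp-Wnt3 and Sp-Msclact, with lines joining libraries of the same letter and treatment and C drawn dashed. Ethanol lines climb from 18 to 21 hpf for the first 5 genes in each letter, whereas for Sp-Msclact control A and B reach 240 and 294 CPM and ethanol A and B stay at 6.71 and 13.3 CPM.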

How the data were processed

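Total RNA of whole embryos was sequenced, and the table holds raw counts per gene model, 1 column per sample, as the authors deposited it. The submitters' processing notes name fastp, STAR and featureCounts. Their settings and the genome build are not given in the sources used here. The annotation gives the percent identity of the closest S. purpuratus gene, per the file headers, and its coordinates are used as they stand. Replicates 1, 2 and 3 of the labels were matched to the sheet's letters A, B and C in that order.

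Counts were fitted in R 4.3.3 with edgeR 4.0.16, with filterByExpr (minimum count 10, minimum total 15), TMM scaling, 6 group means and the replicate letter as a block on all 18 libraries, or on A and B alone. P-values are two-sided and Benjamini-Hochberg adjusted, with a threshold of 0.05. SE is the size of the change divided by the square root of F. Pair changes use log2 CPM with a prior count of 2. The pairing comes from the sample sheet. Deviations from the group mean correlated at 0.640, 0.568 and 0.345 between 18 and 21 hpf ethanol libraries of the same letter. Between different letters the correlations were -0.442 to -0.0605. Deviations within a group cancel out, so negative values between different letters are partly built in. No libraries were duplicates. limma 3.58.1, DESeq2 1.42.0, other scalings, filters and left-out letters were alternatives. The test was tried on simulated data and recovered 22 of 50 genes changed 2-fold and 46 of 50 changed 4-fold. The changed genes were drawn from those with higher counts and no label was exchanged, so these rates may not hold for the real comparison.

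Named genes were first the 12 largest rises and 6 largest falls with all letters, and up to the 6 largest of each with A and B alone. These passed the threshold in the same direction in each pair, with a name and a mean log2 CPM of at least 2. The top of the difference test was added, and list members that passed, or the 2 nearest of a list with none. List members had no minimum level, and Sp-Co5a1 (L_var_06445) was at a mean log2 CPM of 1.43. Members and lists were chosen with earlier results of these data known.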

Additional observations from a re-analysis of the deposited data

Results flagged for a closer look

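For 4 genes that rose in ethanol embryos with all letters, each ethanol pair was higher at 21 hpf and each control pair lower. Sp-Atub13 (L_var_09859), an alpha-tubulin, changed by 2.11 in ethanol embryos and stood at -0.47 in control embryos on the log2 scale. Sp-Dr_1, the deadringer homologue, changed by 1.66 against -0.61. Sp-FoxY changed by 1.43 against -0.63, and the ribosomal protein gene Sp-Rps23 by 1.29 against -0.10. None of these differences passed in edgeR over all genes, where the smallest adjusted p was 0.448, and none of the 4 rises passed with A and B alone.

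Sp-Msclact was singled out by the test of the difference itself with A and B alone, at -3.49 (edgeR, Benjamini-Hochberg, adjusted p = 0.00761), against a control change of 4.03. With all letters the difference was -1.51 and did not pass (edgeR, adjusted p = 0.598).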

How the results depend on the processing

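The count of 236 genes that changed in ethanol embryos depended on the letters and on the fit. Leaving out a letter gave 0 to 79 genes. Leaving out ethanol C at 21 hpf alone gave 61, and leaving out C without the replicate block gave 0 (544 at an unadjusted p under 0.05). Without the replicate block, the fit to all libraries gave 2 (1241 at an unadjusted p under 0.05). DESeq2 gave 861, of which 716 rose and 145 fell, and a fit to the 6 ethanol libraries alone gave 125. For the difference from control, the count of 0 became 15 with DESeq2 and 1 without C. Leaving out both C libraries at 21 hpf, an alternative chosen after seeing the data, gave 220 changed genes, 155 of them shared with the 236, and 3 genes for the difference. Size factors of DESeq2 in edgeR, the looser filter and limma-voom gave 259, 352 and 168. The cause of these shifts was not tested.

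Of the 76 named genes 64 passed with all letters. None of the 76 changed direction under the alternatives fitted to both treatments, 75 of them being tested without A. Single genes were not tabulated for the 6 ethanol libraries alone. With limma-voom 49 of the 64 still passed, with DESeq2 63, without B 20, without C 22, and without the block 1. Without A none of 63 did. Genes under 1 CPM at 18 hpf rest on few counts in a library, so their changes are imprecise.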

Other observations

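Several further transcription factors, chosen after their values were seen, were among the genes that rose with both sets of letters. Sp-FoxD_1 (L_var_19291), a forkhead gene, went from 0.914, 4.43 and 2.64 CPM at 18 hpf to 14.1, 22.7 and 49.4 CPM at 21 hpf, a rise of 3.64 (edgeR, Benjamini-Hochberg, adjusted p = 0.0277) and of 2.88 with A and B alone (adjusted p = 0.0108). Sp-GlassL rose by 3.09 and 2.33 and Sp-Rfx6L1_1 by 2.89 and 2.30 in the same order. For these 3 genes the ethanol libraries of the 2 times did not overlap.

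Models named Sp-Susd2 rose on both of their runs on chromosome 8, by 2.61 (L_var_15561) and 2.41 (L_var_15630) with all letters and by 2.59 and 2.49 with A and B alone. Reads may be shared between the runs. In ethanol embryos, Sp-NefhL_1 (L_var_17798) had no count at 18 hpf in any letter and was at 1.45, 1.39 and 1.96 CPM at 21 hpf. Its fitted change with all letters passed the threshold (edgeR, adjusted p = 0.0277), depends on the prior count and is no bound. With A and B alone it did not pass (adjusted p = 0.0864).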
